A study of Mus musculus with 4 samples.

Results

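The comparison described here set osteoclasts of LysM-St18flox mice against osteoclasts of wild-type mice, each measured on 1 array, so it rests on 2 of the 4 arrays of the study. Osteoclasts were grown from mouse bone marrow in RPMI1640 medium with serum, first for 4 days with 25 ng/ml M-CSF, which keeps macrophages alive and dividing, and then for 3 days with 25 ng/ml M-CSF and 50 ng/ml RANKL, the cytokine that turns macrophages into osteoclasts. The LysM-St18flox and wild-type cultures received the same factors at the same doses and times. The other arrays held LysM-St18flox and wild-type macrophages from the first 4 days, with M-CSF and without RANKL. By convention the name LysM-St18flox stands for mice whose St18 gene is flanked by loxP sites and whose Cre recombinase is driven from the lysozyme M gene (Lyz2), a driver active in macrophages, neutrophils and osteoclast precursors and often incomplete. The labels give neither the Cre status of the wild-type mice nor the sex, age or number of mice. Of 56605 probes, 34699 (61.3%) were well above background on at least 1 osteoclast array and were kept, of which 21904 carried a gene name and 12795 did not. The named probes covered 15048 genes.

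Osteoclasts are multinucleated cells formed by fusion of macrophage precursors, and they resorb bone by pumping acid through a V-type proton ATPase and secreting cathepsin K and matrix metalloproteinases into a sealed space beneath the cell. RANKL acts through its receptor RANK (Tnfrsf11a) to induce the transcription factor Nfatc1, which drives the genes of fusion and resorption, while factors such as Irf8 and Id proteins hold the process back. St18 encodes a zinc finger transcription factor of the Myt1 family, whose members bind a short element with the core AAAGTTT.

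Values are scaled levels, the log2 of the processed signal of a probe over the 75th percentile of its array, and a difference is the level in LysM-St18flox osteoclasts minus that in wild-type osteoclasts on the log2 scale. A gene was counted when its difference reached 2-fold, which is a limit of size. With 1 array a group, no difference has a replicate check, and no p-value was computed. The share of spots well above background was 61.7% on the LysM-St18flox and 59.0% on the wild-type osteoclast array, and no spot was saturated. The signal at the 75th percentile was 1061.9 on the LysM-St18flox and 769.9 on the wild-type osteoclast array. Among 258 probes with 10 spots each, the median SD of a single-spot difference was 0.0511, which is the error within arrays and not the spread between cultures. Different probes of the same gene disagreed more, with an SD of 0.37 over 5083 genes with several probes. The 4 arrays lay on 1 slide, and their number limits the precision.

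St18 itself differed by less than 2-fold in osteoclasts, and the sign of its difference depended on the scaling. Its brighter probe had a level of 1.12 in LysM-St18flox osteoclasts and 1.55 in wild-type osteoclasts, a difference of -0.43, or 1.35-fold lower. With no scaling the difference was 0.03 and with the spike-in scaling 0.33, and the median over its probes was -0.07. In macrophages the same probe stood at -1.52 in LysM-St18flox cells and 0.29 in wild-type cells, a difference of -1.81. A second, dim St18 probe was well above background only in LysM-St18flox osteoclasts, at -4.60, against -5.67 in wild-type osteoclasts. No label or file places these probes inside or outside the loxP sites, and neither of them checks the deletion. Myt1 and Myt1l, the other members of the family, were not well above background on either osteoclast array. Lyz2, the lysozyme gene that gives the Cre driver its name, had a level of 4.44 in LysM-St18flox and 5.49 in wild-type osteoclasts, 2.07-fold lower, while in macrophages its difference was -0.07.

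Both cultures carried the defining genes of osteoclasts. Ctsk, the cathepsin that digests bone collagen, had a level of 8.04 in LysM-St18flox and 7.75 in wild-type osteoclasts, against -0.30 in LysM-St18flox and 0.05 in wild-type macrophages. Acp5, the tartrate-resistant acid phosphatase used to stain osteoclasts, stood at 8.44 in LysM-St18flox and 8.73 in wild-type osteoclasts. All 10 osteoclast markers were well above background on both osteoclast arrays. At least 2-fold higher in LysM-St18flox were 8 of the 10, beside 3.73% of all genes. The exceptions were Ctsk and Acp5. The summed signal of these markers, in units of the 75th percentile, was 1000 in LysM-St18flox and 773 in wild-type osteoclasts, and it was 11.1 in LysM-St18flox and 13.0 in wild-type macrophages. The 10 macrophage markers summed to 269 in LysM-St18flox and 279 in wild-type osteoclasts, with none past 2-fold. In such bulk RNA, more osteoclasts in a culture and more RNA of these genes per osteoclast cannot be told apart.

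Across all genes, 561 (3.73%) reached 2-fold with the higher level in LysM-St18flox osteoclasts and 576 (3.83%) with the lower level there, 1137 genes or 7.56% in all. The 12795 probes with no gene name split differently, with 2.11% past 2-fold higher and 6.89% past 2-fold lower, against 3.24% and 4.39% of the 21904 named probes. Of these calls, 78 higher and 148 lower genes were well above background on only 1 array, so that their differences are bounds. The 13978 genes measured on both arrays had a median difference of -0.01, with 5% of them below -0.83 and 5% above 0.84. The balance of higher and lower genes depended on the scaling. Higher genes made up 49.3% of the calls as reported, 62.1% after quantile normalization, 68.3% after an intensity-dependent curve was taken off, 90.7% with no scaling and 98.2% when the arrays were scaled on their spike-in controls. Quantile normalization kept 535 of the 561 higher genes past 2-fold and 397 of the 576 lower genes, and the curve kept 542 higher and 330 lower. The spike-in scaling and no scaling move all genes up alike, so that they keep every higher call and drop lower ones by construction. Neither quantile normalization nor the curve turned a call to the opposite direction past 2-fold, and the uniform moves were too small to do so.

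The 2 directions also differed in signal level. Among 5450 genes with a mean level above 2, 115 (2.11%) were higher and 43 (0.789%) were lower. Among 1843 genes with a mean level below -4, near background, 51 (2.77%) were higher and 249 (13.5%) were lower, and their median difference was -0.29. Between -4 and -2 the counts were 166 higher and 185 lower among 2182 genes. Bright genes past 2-fold were therefore mostly higher in LysM-St18flox, and most lower genes were dim.

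**Figure D1:**
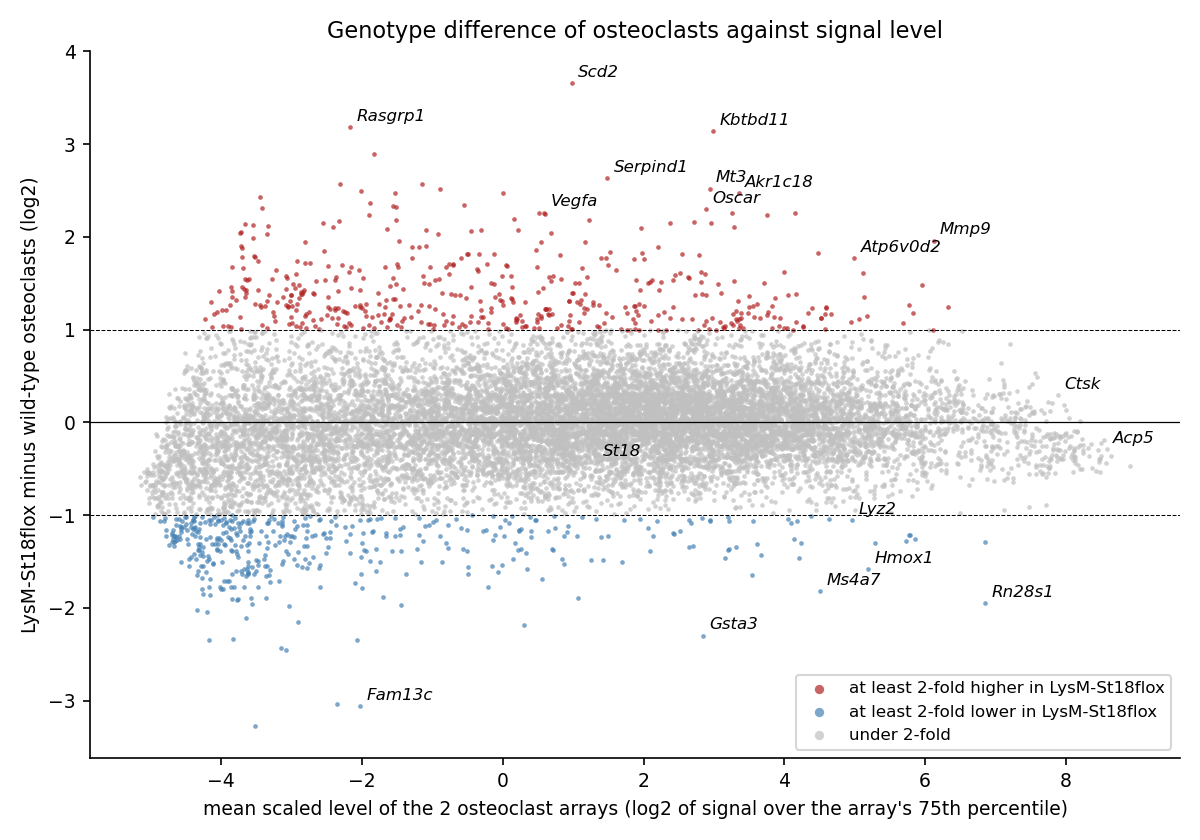
Difference of LysM-St18flox minus wild-type osteoclasts (log2, vertical) against the mean level of the 2 arrays (log2 of the signal over the 75th percentile, horizontal), with 1 point for each of the 13978 genes measured on both arrays and dashed lines at 2-fold. Scd2 stands highest at 3.66, Ctsk and Acp5 lie between the lines at the bright end, and the lower genes crowd at the dim end.

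The resorption machinery was the list with the highest median. Of its 17 genes 10 were at least 2-fold higher in LysM-St18flox osteoclasts, beside 3.73% of all genes. None was lower, and 16 lay above 0, with a median of 1.23 against -0.00 over all genes. In the authors' deposited table, which held 14 of these genes, 7 were past 2-fold higher and the median was 0.92. With the median over the probes of a gene 9 were higher and the median was 1.11. Car2, the carbonic anhydrase that supplies protons for acid secretion, had a level of 4.39 in LysM-St18flox and 2.13 in wild-type osteoclasts, 4.79-fold higher. Calcr, the calcitonin receptor, stood at 3.01 in LysM-St18flox and 0.91 in wild-type osteoclasts, 4.28-fold higher. Car2 and Calcr were not well above background in macrophages of either genotype. Mmp9, a gelatinase secreted into the resorption space, had levels of 7.10 in LysM-St18flox and 5.14 in wild-type osteoclasts, 3.90-fold higher. Mmp14, its membrane-bound relative, stood at 1.71 in LysM-St18flox and -0.09 in wild-type osteoclasts. Atp6v0d2, the osteoclast subunit of the proton pump, had levels of 5.88 in LysM-St18flox and 4.11 in wild-type osteoclasts, 3.41-fold higher.

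The remaining resorption genes past 2-fold serve ion transport, adhesion and the ruffled border. Slc4a2, the exchanger that brings chloride in for bicarbonate, was higher by 1.36 on the log2 scale, Src, a kinase needed for the ruffled border, by 1.30, Ckb, the brain-type creatine kinase, by 1.24, Itgb3, the integrin chain that seals the cell to bone, by 1.23, and Snx10, a sorting nexin of osteoclast vesicles, by 1.11. For Src the probes ran from 0.57 to 1.30. The other chloride and proton transport genes stayed under 2-fold, with Ostm1 at 0.86, Clcn7 at 0.46 and Tcirg1 at 0.38. The list was uneven in its secreted enzymes, where Ctsk, at 0.29, and Acp5, at -0.29, differed little and Mmp9 by 1.96.

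The promoter of Snx10 holds an AP-1 element, the site bound by Fos and Jun family factors that act downstream of RANKL. The window is shown because Snx10 was the only resorption gene with this element among the 13 with a promoter sequence. It lies on the plus strand of chromosome 6 at chr6:51523961-51524017 (RefSeq, GRCm38.p6), and the element, in capitals, starts 98 bases before the gene and reads as TGACTCA on the opposite strand.
Snx10: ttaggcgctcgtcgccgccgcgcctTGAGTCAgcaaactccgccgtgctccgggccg
The search covered 250 bases before to 50 bases after the start of 11972 of the genes compared, on both strands. The element TGACTCA was present in 601 (5.02%) of these promoters, in 34 of 414 (8.21%) of the higher genes and in 34 of 437 (7.78%) of the lower genes, and in 1 of 13 resorption genes (7.69%). A match describes letters and not binding.

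Among 23 regulators and fusion genes, 6 were at least 2-fold higher in LysM-St18flox osteoclasts, beside 3.73% of all genes. None was lower, and the median was 0.23. With the median over the probes of a gene 4 were higher and 1 was lower. Oscar, a collagen receptor that costimulates osteoclast formation, had a level of 4.04 in LysM-St18flox and 1.74 in wild-type osteoclasts, 4.94-fold higher. Ppargc1b, a coactivator of mitochondrial biogenesis, stood at 4.05 in LysM-St18flox and 2.53 in wild-type osteoclasts, 2.87-fold higher. Dcstamp and Ocstamp are the membrane proteins of cell fusion. Dcstamp had levels of 6.42 in LysM-St18flox and 5.24 in wild-type osteoclasts, and Ocstamp had 5.25 in LysM-St18flox and 4.07 in wild-type osteoclasts, each 2.26-fold higher. Nfatc1 was 2.02-fold higher, at 3.87 in LysM-St18flox and 2.85 in wild-type osteoclasts, with its brighter probe, but its second probe differed by 0.38. Fosl2, an AP-1 subunit, was 2.18-fold higher with its brighter probe, with its probes between 0.29 and 1.12.

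RANK, its adaptor Traf6 and the M-CSF receptor stayed under 2-fold. Tnfrsf11a, which encodes RANK, had a level of 5.03 in LysM-St18flox and 4.66 in wild-type osteoclasts, a difference of 0.37. Csf1r, the M-CSF receptor, stood at 7.71 in LysM-St18flox and 7.58 in wild-type osteoclasts, with its probes between -0.96 and 0.13. Traf6, the adaptor of RANK, and Prdm1, a repressor of the antagonists of osteoclast formation, differed by 0.81 each. At the low end of the list were Adam8, a metalloprotease-disintegrin, at -0.94 with its brighter probe and -1.62 with the other, Cd81, a tetraspanin, at -0.80 and Trem2, a receptor that signals through Tyrobp, at -0.59.

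Repressors of osteoclast formation had a median below 0. Of 14 genes compared, 2 were at least 2-fold lower in LysM-St18flox osteoclasts and none was higher, beside 3.83% of all genes that far lower. The median of the 13 with a difference was -0.45, and 10 of the 13 lay below 0. Id1, an inhibitor of helix-loop-helix factors, stood at 0.80 in LysM-St18flox and 1.84 in wild-type osteoclasts, 2.06-fold lower, and in macrophages it differed by -2.21. Irf8, which restrains Nfatc1, was at 1.07 in LysM-St18flox and 1.66 in wild-type osteoclasts, a difference of -0.59. Tnfaip3, which damps NF-kappaB signalling, ran against the rest at 0.82. The list's median turned positive, to at most 0.34, with no scaling and with the spike-in scaling. It stayed 0.40 to 0.46 below the median of all genes under the 7 scalings. Most of these scalings move all genes alike and largely keep this distance by construction.

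Osteoclasts signal to other bone cells through secreted and membrane-bound factors. Of 24 coupling and guidance genes 16 were compared. At least 2-fold higher in LysM-St18flox osteoclasts were 7 of the 16, beside 3.73% of all genes. None was lower, and the median was 0.90. Sphk1, the kinase that makes sphingosine 1-phosphate, had a level of 3.45 in LysM-St18flox and 1.30 in wild-type osteoclasts, 4.43-fold higher. Spns2, a transporter that exports sphingosine 1-phosphate, stood at 3.80 in LysM-St18flox and 2.31 in wild-type osteoclasts, 2.81-fold higher. Lif, a cytokine of the interleukin-6 family, was 3.17-fold higher, at a dim -2.86 in LysM-St18flox and -4.52 in wild-type osteoclasts. Plxna4, a semaphorin receptor, differed by 1.54, Cthrc1, a secreted collagen triple helix protein, by 1.45, and the ephrins Efnb2 and Efnb1 by 1.27 and 1.08. Sema4d, a semaphorin that acts on osteoblasts, differed by 0.26, and the lowest member was Sema4a at -0.75. In the authors' deposited table, which held 10 of these genes, 4 were past 2-fold higher and the median was 0.24, and with the normexp correction the median was 0.64.

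Podosomes are the actin structures of the sealing zone. Of 26 podosome and actin genes 7 were at least 2-fold higher in LysM-St18flox osteoclasts and none was lower, beside 3.73% of all genes that far higher, with a median of 0.42 that was 0.24 with the median over probes. Cttn, the actin-branching protein cortactin, had a level of 3.24 in LysM-St18flox and 1.65 in wild-type osteoclasts, 3.01-fold higher, with its 3 probes between 0.68 and 1.59. Scin, an actin-severing protein, stood at 4.46 in LysM-St18flox and 2.97 in wild-type osteoclasts, 2.82-fold higher. Sh3pxd2a, a podosome scaffold, differed by 1.38, the motor Myo1d by 1.27 and Pstpip1, an adaptor of the actin cytoskeleton, by 1.18. The list shares Itgb3 and Src with the resorption machinery. Itgb5, the integrin chain that is replaced by Itgb3 as osteoclasts form, was the lowest member at -0.84.

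**Figure D2:**
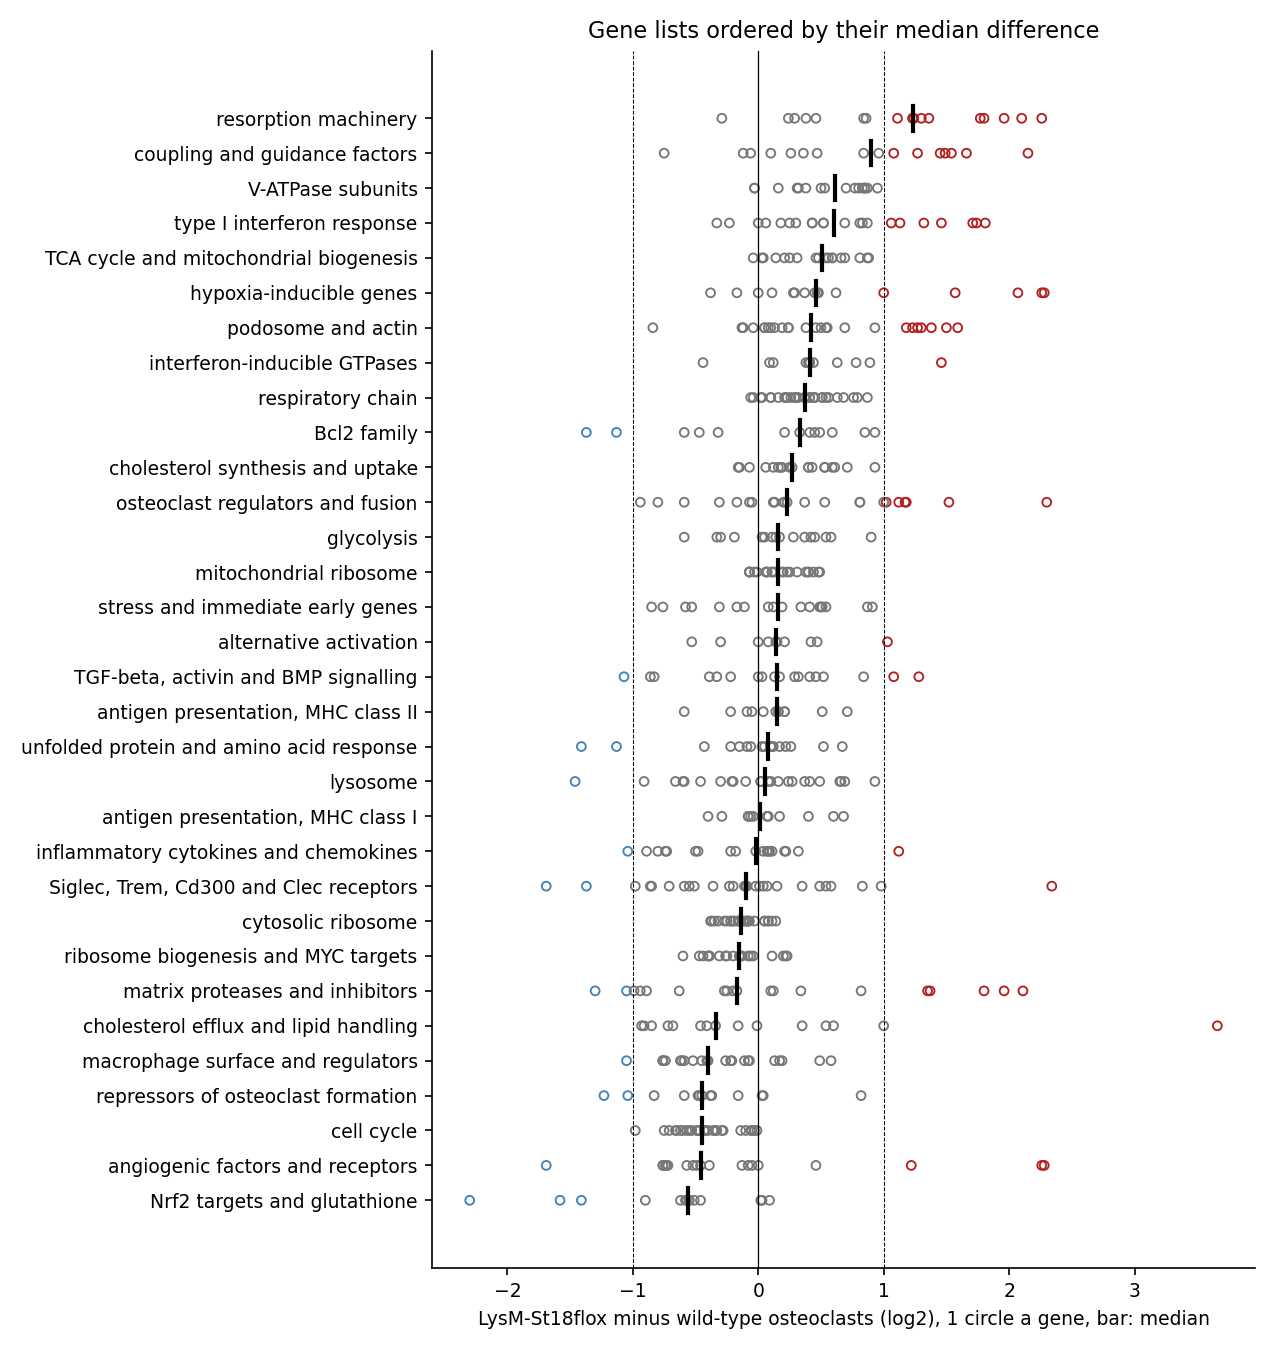
Difference of LysM-St18flox minus wild-type osteoclasts (log2, horizontal) for the genes of each list with at least 6 differences, cell type marker lists left out (rows, in order of the median), with 1 circle a gene, red for at least 2-fold higher, blue for at least 2-fold lower, and a bar at the median. The resorption machinery heads the order with a median of 1.23 and the Nrf2 targets close it with -0.56, while V-ATPase and respiratory chain genes lie mostly above 0 with no gene past 2-fold.

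The proton pump and the mitochondrial lists had no gene past 2-fold but most genes above 0. None of 16 V-ATPase subunits reached 2-fold, yet 14 lay above 0, with a median of 0.61 and Atp6v1e1 highest at 0.95. None of 30 respiratory chain genes did, and 28 lay above 0, with a median of 0.37 and Cyc1, cytochrome c1 of complex III, highest at 0.87. For the TCA cycle and mitochondrial biogenesis 17 of 18 genes lay above 0, with a median of 0.51 and the isocitrate dehydrogenase subunit Idh3b at 0.88. The same lists had medians of 0.04, -0.29 and -0.11 between LysM-St18flox and wild-type macrophages. Under the 7 scalings the 3 medians stayed 0.62 to 0.64, 0.35 to 0.39 and 0.48 to 0.53 above that of all genes. Most of these scalings move all genes alike, which largely keeps such distances by construction. The ribosomes were nearer to 0, with medians of 0.16 for the mitochondrial and -0.14 for the cytosolic ribosome, and glycolysis had a median of 0.16.

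Genes induced by low oxygen included several large differences. Of 16 hypoxia-inducible genes 5 were at least 2-fold higher in LysM-St18flox osteoclasts, beside 3.73% of all genes. None was lower, and the median was 0.46. Egln3, a prolyl hydroxylase that marks HIF for degradation, had a level of 0.72 in LysM-St18flox and -1.35 in wild-type osteoclasts, 4.20-fold higher. Adm, the vasodilator adrenomedullin, stood at -2.61 in LysM-St18flox osteoclasts and did not clear the background in the wild type, at least 4.86-fold higher. Ankrd37 differed by 1.57, and Bnip3, a mitophagy receptor, stood at the limit itself, at 4.63 in LysM-St18flox and 3.63 in wild-type osteoclasts. Vegfa, the main angiogenic growth factor, had 4 probes that split by sign. Its brightest probe stood at 1.72 in LysM-St18flox and -0.54 in wild-type osteoclasts, 4.78-fold higher, and 2 further probes were higher by 2.05 and 1.87, but the fourth probe was lower, at -3.04 in LysM-St18flox and -0.71 in wild-type osteoclasts. The same split of Vegfa probes was seen in macrophages, with 2.44, 2.05 and 2.35 against -1.38. Of the 16 hypoxia-inducible genes 4 were at least 2-fold higher in LysM-St18flox than wild-type macrophages, beside 3.28% of all genes. None was lower there, and the median was 0.24. Egln3 differed by 1.39 and Ankrd37 by 1.05 in macrophages. In the angiogenic list as a whole, 3 of 19 genes (Vegfa, Adm and Vegfb) were higher and 1 was lower, beside 3.73% and 3.83% of all genes. Vegfa and Adm were also counted among the hypoxia-inducible genes. The median was -0.46, and it was 0.00 with no scaling and 0.30 with the spike-in scaling. The lower gene was Hgf, a growth factor for epithelium, which was not well above background in LysM-St18flox osteoclasts and at least 3.22-fold lower. In the authors' deposited table, which held 17 of these genes, 2 were higher and none was lower.

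Part of the interferon-stimulated genes passed 2-fold. Of 22 type I interferon genes 7 were at least 2-fold higher, beside 3.73% of all genes. None was lower and 20 lay above 0, with a median of 0.60. The antiviral synthetases Oas1a, at -0.33, and Oas3, at -0.23, were below 0. Rsad2, the antiviral protein viperin, had a level of 0.41 in LysM-St18flox and -1.40 in wild-type osteoclasts, 3.52-fold higher, with its dimmer probe at a difference of 0.32. Ifi44 stood at -2.06 in LysM-St18flox and -3.80 in wild-type osteoclasts, 3.33-fold higher. Ifit1, which binds foreign RNA ends, had levels of 0.15 in LysM-St18flox and -1.56 in wild-type osteoclasts, 3.28-fold higher, and its relatives Ifit3 and Ifit2 differed by 1.32 and 1.13. Cmpk2, a mitochondrial nucleotide kinase next to Rsad2, differed by 1.46 and Usp18, which removes Isg15 from proteins, by 1.06. Between LysM-St18flox and wild-type macrophages the same list had a median of 0.41. At least 2-fold higher there were 2 of 22 genes, beside 3.28% of all genes. Ifit1 stood at 1.82 in LysM-St18flox and 0.76 in wild-type macrophages. Iigp1, an interferon-inducible GTPase, differed by 1.46 in osteoclasts and by 1.34 in macrophages, and Cxcl10, an interferon-induced chemokine, by 1.12 in osteoclasts and -0.60 in macrophages.

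These promoters are shown because the list shares a sequence element. The interferon-stimulated response element, searched on both strands as GAAA and GAAA with 2 bases between them, was present in 10 of 18 interferon genes with a promoter sequence (55.6%), against 464 of 11972 (3.88%) of the genes compared, 15 of 414 (3.62%) of the higher genes and 18 of 437 (4.12%) of the lower genes. Each window is in the direction of the gene, with the element in capitals as it reads on the opposite strand. The Ifit1 window is chr19:34640760-34640819 on the plus strand, the Ifit3 window chr19:34583348-34583407 on the plus strand and the Rsad2 window chr12:26456538-26456597 on the minus strand (RefSeq, GRCm38.p6), and the elements start 104, 156 and 120 bases before the genes.
Ifit1: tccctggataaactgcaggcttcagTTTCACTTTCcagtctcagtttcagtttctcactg
Ifit3: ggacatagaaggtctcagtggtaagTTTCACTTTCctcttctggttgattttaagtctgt
Rsad2: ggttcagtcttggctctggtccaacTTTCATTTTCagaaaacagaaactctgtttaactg
The element was also present in 2 of 13 resorption genes with a promoter sequence (15.4%).

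The Nrf2 response protects cells from oxidants. Of its 14 genes 3 were at least 2-fold lower in LysM-St18flox osteoclasts, beside 3.83% of all genes. None was higher, and 11 lay below 0, with a median of -0.56. Gsta3, a glutathione S-transferase, had a level of 1.70 in LysM-St18flox and 4.00 in wild-type osteoclasts, 4.93-fold lower, with its second probe at -2.13. Hmox1, heme oxygenase 1, stood at 4.40 in LysM-St18flox and 5.98 in wild-type osteoclasts, 3.00-fold lower. Slc7a11, the cystine transporter, had levels of -2.87 in LysM-St18flox and -1.46 in wild-type osteoclasts, 2.65-fold lower, but its second probe differed by -0.81. Nqo1, a quinone reductase, was at -0.90. The list had the same median of -0.56 between LysM-St18flox and wild-type macrophages, with 3 of 14 genes lower, beside 2.96% of all genes there. Under the 7 scalings its osteoclast median ran from -0.62 to 0.19, positive with the spike-in scaling alone. It stayed 0.55 to 0.63 below the median of all genes, a distance largely fixed by construction where all genes move alike.

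Cell cycle genes all lay below 0 by small amounts. None of 30 reached 2-fold, but 30 of 30 were negative, with a median of -0.45, from Ccne2, a cyclin of S phase entry, at -0.98 to the replication helicase subunit Mcm5 at -0.01. The proliferation marker Mki67 differed by -0.40 and Cdk1, the mitotic kinase, by -0.47. In macrophages the median was -0.67. The sign of the osteoclast median was not independent of the scaling. It was positive, at most 0.31, with no scaling and with the spike-in scaling. It stayed 0.43 to 0.51 below the median of all genes. Scalings that move all genes alike largely keep this distance by construction.

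Most macrophage surface genes and most lipid handling genes lay below 0 by under 2-fold. Of 23 macrophage genes 18 lay below 0, with a median of -0.40. Lyz2 was the 1 gene past 2-fold, beside 7.56% of all genes past 2-fold either way. Adgre1, the F4/80 antigen, was at -0.74, Marco, a scavenger receptor, at -0.76 and Cebpa, a myeloid transcription factor, at -0.76, while Siglec1 was at 0.58 and Cd68 at 0.49. In the list of cholesterol efflux and lipid handling the 1 gene past 2-fold was Scd2, a desaturase 12.6-fold higher in LysM-St18flox. That is 1 of 15 genes, near the 7.56% of all genes. The efflux genes Abcg1, Pltp and Abca1, a pair of cholesterol transporters and a phospholipid transfer protein, also lay above 0, with Pltp at 0.60 and Abca1 at 0.54, but 10 of 15 genes of the list lay below 0, among them Cd36, a fatty acid receptor, at -0.93, Fabp4, a fatty acid carrier, at -0.91 and Apoe at -0.85. These medians, -0.40 and -0.34, also turned positive with no scaling and with the spike-in scaling. Cholesterol synthesis genes had a median of 0.27, with 16 of 19 above 0. Lysosomal genes were divided, with 14 of 24 above 0 and a median of 0.05. Lipa, the acid lipase, was 2.75-fold lower at 3.48 in LysM-St18flox and 4.94 in wild-type osteoclasts, while Glb1, a galactosidase, was at 0.93.

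Matrix proteases and their inhibitors differed in both directions, 5 higher and 2 lower among 19 genes, beside 3.73% and 3.83% of all genes. Serpine2, an inhibitor of thrombin and plasminogen activators, had a level of 4.34 in LysM-St18flox and 2.23 in wild-type osteoclasts, 4.31-fold higher. Cst7, a cystatin, differed by 1.37 and Adamts4, an aggrecanase, by 1.35. The lower genes were Slpi, an inhibitor of elastase, 2.46-fold lower with its brighter probe and at -0.58 with the other, and Mmp8, the neutrophil collagenase, 2.07-fold lower. In the transforming growth factor beta pathway the receptor Tgfbr2 was 2.43-fold higher, at 4.26 in LysM-St18flox and 2.97 in wild-type osteoclasts. Its partner Tgfbr1 was 2.11-fold higher, at 4.70 in LysM-St18flox and 3.62 in wild-type osteoclasts, although a second Tgfbr1 probe differed by -0.10. Acvr1b, an activin receptor, was 2.10-fold lower at a dim -4.47 in LysM-St18flox and -3.40 in wild-type osteoclasts. Of the Bcl2 family none of 13 genes was higher and 2 were lower, beside 3.83% of all genes. Bik was at -1.37, with dim levels of -4.74 in LysM-St18flox and -3.37 in wild-type osteoclasts. Bcl2 was at -1.13 with its brighter probe and -0.76 with the other. With the median over the probes of a gene 1 was lower, and with the normexp correction none was.

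Inflammatory genes were balanced, with a median of -0.02 over 19 genes. Cxcl10 was the 1 gene at least 2-fold higher. Ccl3, a chemokine that attracts monocytes, was the 1 gene lower, at 1.43 in LysM-St18flox and 2.46 in wild-type osteoclasts. These counts are near the 3.73% of all genes higher and 3.83% lower. Antigen presentation genes of MHC class II and class I had medians of 0.15 and 0.01, with none past 2-fold in either list. Among 27 Siglec, Trem, Cd300 and Clec receptors 1 was higher and 2 were lower, which is near the 3.73% and 3.83% of all genes. Siglec15, a sialic acid receptor of osteoclasts that pairs with Dap12, had a level of 0.62 in LysM-St18flox and -1.72 in wild-type osteoclasts, 5.07-fold higher, and was not well above background in macrophages. Treml4 was 3.23-fold lower and Cd300lf, an inhibitory receptor of myeloid cells, 2.58-fold lower, at 0.01 in LysM-St18flox and 1.38 in wild-type osteoclasts.

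The largest difference among genes bright enough to be ranked was that of Scd2, a stearoyl-CoA desaturase that makes monounsaturated fatty acids. Its level was 2.81 in LysM-St18flox and -0.84 in wild-type osteoclasts, 12.6-fold higher, and in macrophages it stood at 2.43 in LysM-St18flox and 1.15 in wild-type cells. The wild-type osteoclast array was the low value of the 4. Rasgrp1, an activator of Ras, had a level of -0.58 in LysM-St18flox and -3.76 in wild-type osteoclasts, 9.08-fold higher. Kbtbd11, a kelch repeat protein, stood at 4.56 in LysM-St18flox and 1.42 in wild-type osteoclasts, 8.83-fold higher. Serpind1, heparin cofactor 2, had levels of 2.80 in LysM-St18flox and 0.17 in wild-type osteoclasts, 6.20-fold higher. Rasgrp1 and Serpind1 were not well above background in macrophages of either genotype. F13a1, the A chain of coagulation factor XIII, was 5.96-fold higher at 0.14 in LysM-St18flox and -2.44 in wild-type osteoclasts, and in macrophages it stood at 5.40 in LysM-St18flox and 2.15 in wild-type cells.

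The other genes among the 14 highest ran from 2.34 to 2.89. Mt3, a metallothionein, had levels of 4.20 in LysM-St18flox and 1.68 in wild-type osteoclasts, and Akr1c18, a hydroxysteroid dehydrogenase, 4.59 in LysM-St18flox and 2.12 in wild-type osteoclasts. Adamts14, a procollagen protease, was higher by 2.52 and 2.99 with its 2 probes. Steap4, a metalloreductase, stood at -0.70 in LysM-St18flox and -3.06 in wild-type osteoclasts and was not well above background in macrophages. Clic5, Klra17, Denn2b, Gm14305 and Siglec15 completed the list. For Gm14305, a predicted gene, the wild-type osteoclast array at -3.27 stood apart from -0.38 in LysM-St18flox osteoclasts, -0.33 in LysM-St18flox macrophages and -0.11 in wild-type macrophages.

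Steap4 was also a higher gene whose promoter holds the Myt1 family element, and its window is shown for that reason. It is chr5:7960338-7960394 on the plus strand (RefSeq, GRCm38.p6), and the element in capitals starts 109 bases before the gene and reads as AAAGTTT on the opposite strand.
Steap4: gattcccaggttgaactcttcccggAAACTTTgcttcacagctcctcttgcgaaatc
The element was present in 531 of 11972 promoters (4.44%), in 21 of 414 higher genes (5.07%) and in 26 of 437 lower genes (5.95%), and in 2 of 13 resorption genes (15.4%).

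**Figure D3:**
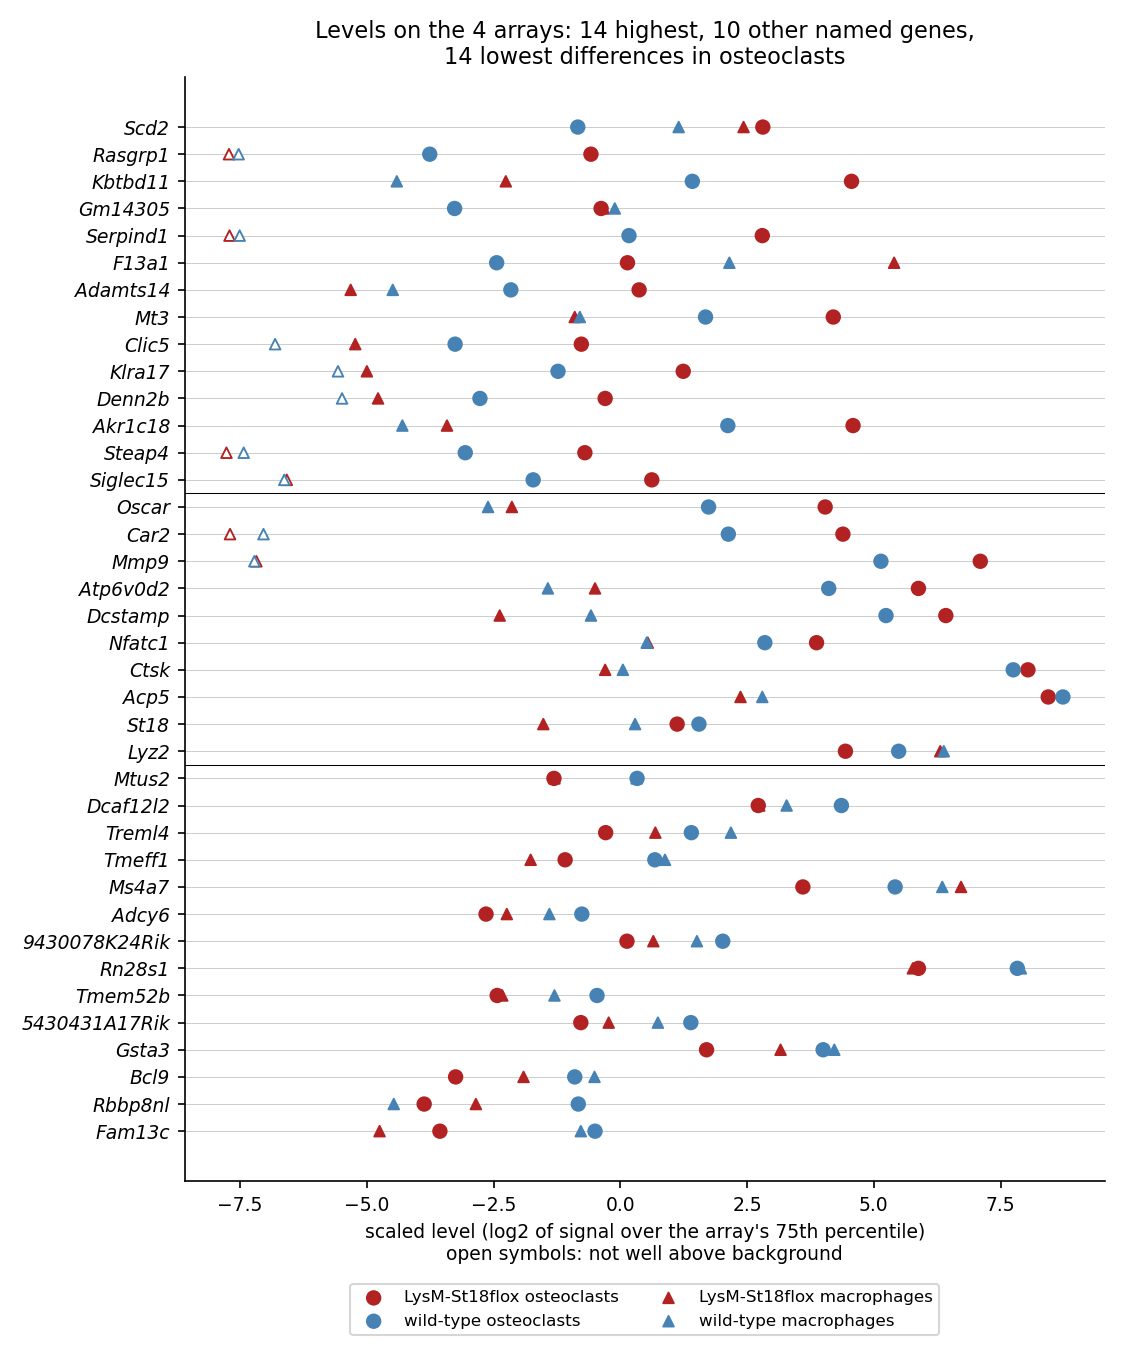
Scaled level (log2 of the signal over the 75th percentile of the array, horizontal) on the 4 arrays for the 14 genes with the highest difference in osteoclasts, 10 further named genes and the 14 with the lowest difference. Circles are osteoclasts and triangles macrophages, red LysM-St18flox and blue wild type, and open symbols were not well above background. Serpind1, Rasgrp1 and Car2 are filled symbols for osteoclasts and open ones for macrophages, while Rn28s1 and Mtus2 are displaced alike in both cell types.

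No member of the resorption machinery list was among the 14 lowest differences, and none was among the 14 highest. Fam13c had a level of -3.56 in LysM-St18flox and -0.50 in wild-type osteoclasts, 8.36-fold lower, and in macrophages stood at -4.75 in LysM-St18flox and -0.78 in wild-type cells. Rbbp8nl, a relative of a DNA end resection factor, was 8.24-fold lower at -3.87 in LysM-St18flox and -0.83 in wild-type osteoclasts. Bcl9, a coactivator of beta-catenin, was lower by 2.35 on the log2 scale with its brighter probe and by 1.12 with the other. Ms4a7, a membrane protein of macrophages, had a level of 3.60 in LysM-St18flox and 5.42 in wild-type osteoclasts, 3.54-fold lower, and in macrophages its difference was 0.37. Adcy6, an adenylate cyclase, differed by -1.88 and Tmeff1 by -1.77 with its brighter probe and -0.94 with the other. The 28S ribosomal RNA probe Rn28s1 was 3.87-fold lower, at 5.88 in LysM-St18flox and 7.83 in wild-type osteoclasts, and it was lower in macrophages by the similar amount of -2.13. Its part in the other differences was not tested. Of the 14 lowest genes 12 were also below 0 between LysM-St18flox and wild-type macrophages. The exceptions were Ms4a7 and Rbbp8nl, which was higher there by 1.62. Of the 14 highest genes 7 were above 0 in macrophages, 3 were below 0 and 4 had no fold or were at background.

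Among genes well above background on only 1 array, the bound was widest for Fam120a. Its probe had a level of 4.79 in LysM-St18flox osteoclasts and did not clear the background in wild-type ones, at -5.80, while macrophages stood at 4.66 in LysM-St18flox and 5.06 in wild-type cells, so that the wild-type osteoclast array alone lacked the signal. The bound was at least 820-fold. A probe of 1700034G24Rik did the reverse, with 3.00 in LysM-St18flox osteoclasts and no other array well above background, at least 238-fold higher, and its second probe was at background on all 4. Fstl1, a secreted follistatin-like protein, was at least 11.2-fold higher, Syce1 at least 10.8-fold and Dlx4 at least 9.51-fold. In the other direction Art5 was at least 13.7-fold lower, at -7.80 in LysM-St18flox and -1.72 in wild-type osteoclasts, with both macrophage arrays at background, and Olfr354, Galr1, Olfr610 and 4933411E08Rik were at least 10.3-fold lower. Each of these bounds rests on 1 spot per array.

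Markers of other marrow cells were read for both osteoclast cultures. Their counts past 2-fold stand beside 3.73% of all genes higher and 3.83% lower. Neutrophil markers summed to 112 in LysM-St18flox and 172 in wild-type osteoclasts, with 14 and 12 of 15 above background, Mmp8 as the 1 gene past 2-fold, Prtn3 and Retnlg too dim for a fold, and Ly6g with no named probe. B cell markers summed to 1.25 in LysM-St18flox and 1.85 in wild-type osteoclasts, with 7 of 12 above background on either array. The 1 B cell gene past 2-fold was Ms4a1, at least 2.47-fold lower. T and NK cell markers summed to 6.65 in LysM-St18flox and 4.38 in wild-type osteoclasts, where Cd5 (2.01-fold) and Zap70 (at least 2.48-fold) were higher. Erythroid markers summed to 23.6 in LysM-St18flox and 11.7 in wild-type osteoclasts, while 6 of the 10 were above background on neither array. Nearly all of both sums was the signal of 1 gene, Tfrc, the transferrin receptor. Its level was 4.55 in LysM-St18flox and 3.53 in wild-type osteoclasts, 2.03-fold higher. Stromal and osteoblast markers summed to 1.46 in LysM-St18flox and 2.05 in wild-type osteoclasts. Dendritic cell markers summed to 126 in LysM-St18flox and 167 in wild-type osteoclasts, with none past 2-fold. Endothelial markers summed to 6.56 in LysM-St18flox and 6.44 in wild-type osteoclasts, with Esam 2.07-fold lower. Mast cell and basophil markers summed to 0.381 in LysM-St18flox and 0.416 in wild-type osteoclasts, with Gata2 2.16-fold higher. Megakaryocyte markers summed to 83.8 in LysM-St18flox and 84.9 in wild-type osteoclasts, although the platelet chemokine Ppbp was 5.04-fold lower. The part of such cells in the differences above was not tested. Xist, the X inactivation transcript, had a level of -0.52 in LysM-St18flox and -0.07 in wild-type osteoclasts, and the Y-linked genes were not well above background on either array.

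Scaling set how many genes passed 2-fold and on which side. The 75th percentiles of the 2 osteoclast arrays differed by 0.46 on the log2 scale, higher in LysM-St18flox, while the 8 spike-in probes of known amount differed by -0.29, lower in LysM-St18flox. Scaling on the spike-ins therefore moved the median of all genes to 0.74 and gave 3990 higher and 74 lower genes, and no scaling moved it to 0.45 and gave 1725 higher and 177 lower genes. Median centring gave 603 higher and 537 lower genes, and a 75th percentile over the probes well above background on both arrays gave 492 higher and 658 lower. Quantile normalization gave 656 higher and 400 lower genes, and the intensity-dependent curve 718 higher and 333 lower. Relative to the median of all genes, the resorption machinery stayed 1.16 to 1.24 higher under the 7 scalings. The coupling factors stayed 0.84 to 0.92 higher and the interferon genes 0.55 to 0.62 higher. Most of these scalings move all genes alike and largely keep such distances by construction. Quantile normalization and the intensity-dependent curve can change them. With these the distances were 1.16 and 1.17 for the resorption machinery, 0.84 and 0.88 for the coupling factors and 0.55 and 0.56 for the interferon genes. Whether the cells held different amounts of mRNA per input RNA was not tested.

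**Figure D4:**
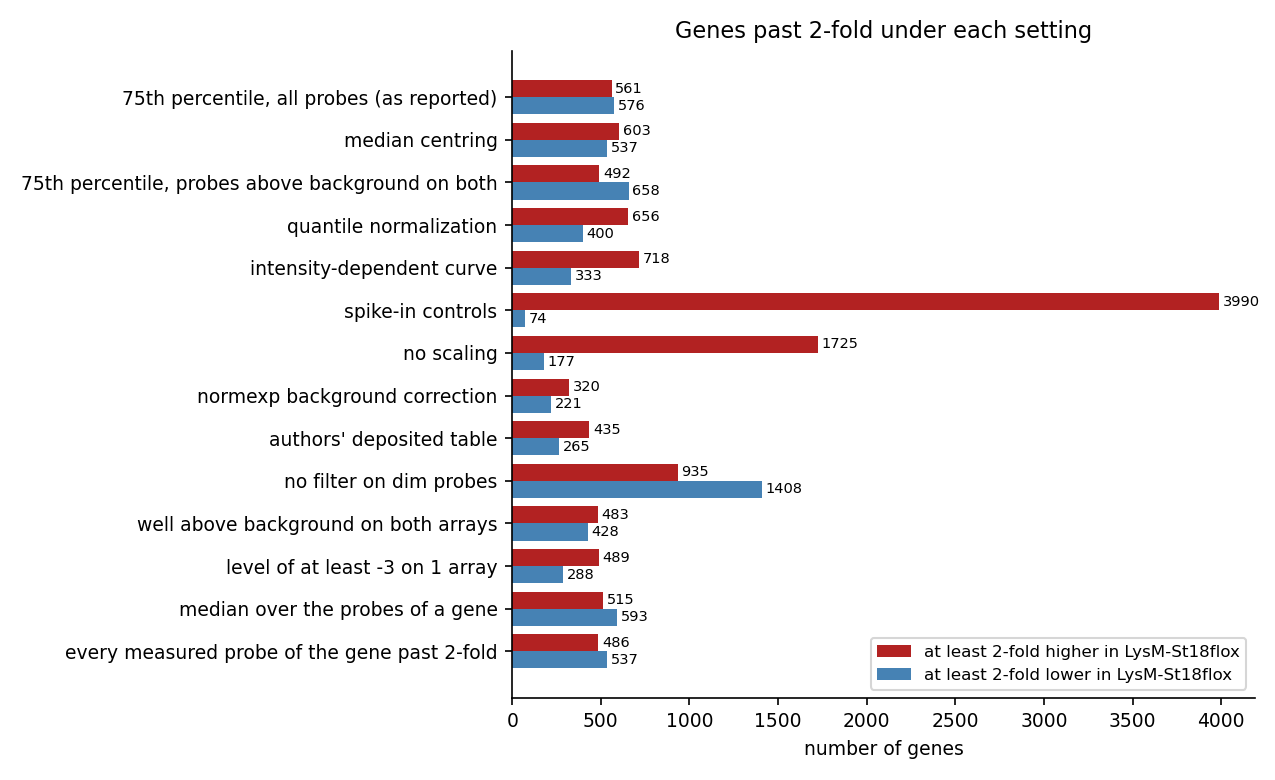
Number of genes (horizontal) past 2-fold between LysM-St18flox and wild-type osteoclasts, higher in red and lower in blue, under the reported setting and 13 others (rows). The reported setting gives 561 and 576, and the spike-in scaling gives 3990 and 74.

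The macrophage arrays compared the same genotypes and share no array with the osteoclast comparison, although the labels do not say whether the cell types came from the same mice. In macrophages 503 genes (3.28%) passed 2-fold with the higher level in LysM-St18flox and 453 (2.96%) with the lower level there. Among 13665 genes measured on all 4 arrays, 52 were higher in both cell types, which is 13.8% of the 376 higher in osteoclasts and 14.5% of the 359 higher in macrophages. A total of 77 were lower in both, 18.9% of the 408 lower in osteoclasts and 23.3% of the 330 lower in macrophages. Opposite directions were rarer, with 15 genes higher in osteoclasts and lower in macrophages (3.99% of the osteoclast list) and 7 the other way (1.72%). The 3.99% is above the share lower in macrophages among all 13665 genes (330 genes). The 1.72% is below the share higher in macrophages (359 genes). Shared higher genes included Scd2, Kbtbd11, F13a1 and Vegfa, and shared lower genes included Fam13c, Tmeff1, Treml4, Gsta3 and Rn28s1. The resorption machinery was not among what the cell types shared. Of 15 resorption genes compared in macrophages none was higher and 1 was lower, with a median of -0.05.

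**Figure D5:**
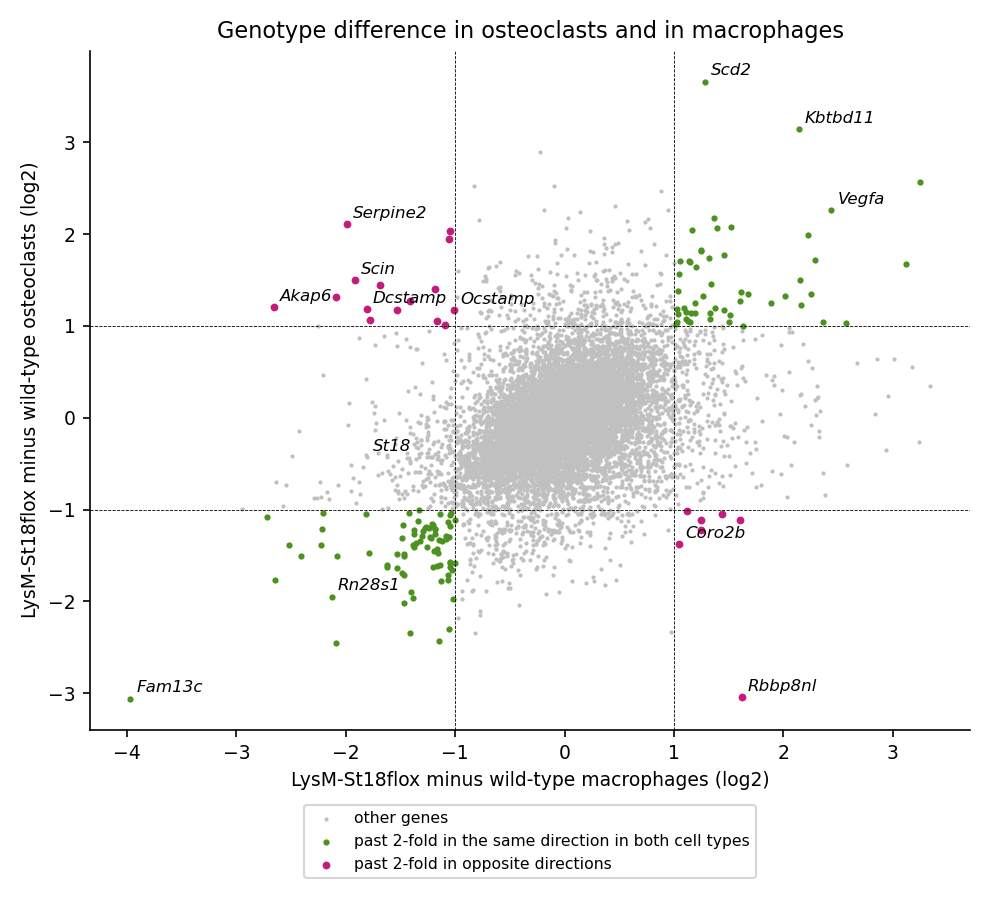
Difference of LysM-St18flox minus wild type (log2) in osteoclasts (vertical) against that in macrophages (horizontal), with 1 point for each of the 13665 genes measured on all 4 arrays and dashed lines at 2-fold. Green points passed 2-fold in the same direction in both cell types, magenta points in opposite directions, and Serpine2, Scin, Dcstamp and Ocstamp are among the 15 genes higher in osteoclasts and lower in macrophages.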

How the data were processed

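Total RNA was labelled with Cy3, per the labels' protocols, and hybridised to Agilent mouse arrays. The submitters' processing notes name Agilent Feature Extraction, version 11.0.1.1. Per the file headers, the deposited processed signal is an intensity corrected for background on its own array and not scaled to the others, and the deposited files also give a median spot intensity and a local background intensity. A table deposited by the authors holds log2 values of 30909 probes and served as an alternative. No label or header says how it was made.

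The intensities were averaged over the spots of a probe as log2, without spots flagged uneven or outlying, and the 75th percentile of the array was taken off. Probes kept were well above background on either osteoclast array. Named probes, 32994 of 56605 (58.3%) for 22911 genes, were matched by RefSeq accession to gene symbols of GRCm38.p6, while the file headers name another build. A gene was represented by its brightest probe. Where 1 array was not well above background, its side was taken as the lowest scaled level well above background (-5.50 in LysM-St18flox and -4.89 in wild-type osteoclasts) or its own level, whichever was higher, giving a bound. Of 15048 genes, 13978 were measured on both arrays, 641 had a bound, and 429 had no fold because the bound fell under 1-fold. No test was made, since each group had 1 array.

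Members and the 44 gene lists were chosen with earlier results of these data known. Named genes were St18 with its family, Lyz2, sex-linked genes, the 14 highest and 14 lowest differences among genes with a level of at least -1 on the brighter array, the 5 highest and 5 lowest bounds, and for each list the 2 highest and 2 lowest members past 2-fold, beside 11 genes taken whatever their values, of which Nnt had no named probe. Other list members named, and the promoter windows, were chosen after their values were seen. A gene that the rule names is not reported here. Alternatives were median centring, another 75th percentile, quantile normalization, a lowess curve (fraction 0.3), spike-in scaling, no scaling, normexp background correction (offset 50) on the median spot intensity in place of the planned mean, which was not analysed here, the authors' table, 3 filters, the median over probes, other fold thresholds and, added after seeing the data, agreement of every probe. The calculation was tested on simulated data. Python 3.11.15, pandas 2.3.3, statsmodels 0.14.6, R 4.3.3 and limma 3.58.1 were used.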

Additional observations from a re-analysis of the deposited data

Results flagged for a closer look

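For 6 of the named genes the genotype difference in osteoclasts and that in macrophages pointed in opposite directions and passed 2-fold in each. These differences between cell types were not tested, since each group had 1 array. Serpine2, a protease inhibitor, differed by 2.11 between LysM-St18flox and wild-type osteoclasts and by -1.99 between LysM-St18flox and wild-type macrophages. Scin, an actin-severing protein, differed by 1.5 in osteoclasts and by -1.92 in macrophages. The fusion genes behaved alike, with Dcstamp at 1.18 in osteoclasts and -1.81 in macrophages and Ocstamp at 1.17 in osteoclasts and -1.01 in macrophages. Cd5, a surface receptor best known from lymphocytes, was at 1.01 in osteoclasts and -1.09 in macrophages. Rbbp8nl was the 1 named gene of the opposite kind, at -3.04 in osteoclasts and 1.62 in macrophages. In all 22 genes measured on the 4 arrays went in opposite directions past 2-fold.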

How the results depend on the processing

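The reported counts were 561 higher and 576 lower genes, 1137 in all. Spike-in scaling gave 3990, 74 and 4064, and no scaling 1725, 177 and 1902. Normexp correction gave 320, 221 and 541, and no filter on dim probes 935, 1408 and 2343 over 22904 genes. The authors' table gave 265 lower genes and 700 in all, beside 435 higher. The intensity-dependent curve gave 333 lower genes, and a level of at least -3 on 1 array 288 lower. At 1.5-fold there were 1520 higher and 1759 lower genes, and at 4-fold 72 and 41. The shifts of the median of all genes, 0.74 for spike-ins and 0.45 for no scaling, set those counts by construction. For the rest the cause was not tested. The remaining settings stayed within 1.5 times the reported counts. No gene past 2-fold as reported was past 2-fold the other way under the 13 settings that kept the 2-fold limit, and of 84 named genes past 2-fold, 79 were still so after quantile normalization, 64 after spike-in scaling, 68 after normexp correction and 53 of the 58 in the authors' table, none with the opposite sign. No paired analysis was possible because each group had 1 array. For the same reason no replicate could be left out. Signal over background is a further limit, since 249 of the 576 lower genes have a mean level below -4.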

Other observations

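Of 132 higher genes with several probes measured on both arrays, 118 had every probe above 0 and 58 had every probe past 2-fold. Of 57 lower genes of this kind, 47 had every probe below 0 and 18 had every probe past 2-fold lower. Of 258 probes with 10 spots, 2 passed 2-fold higher in LysM-St18flox osteoclasts and 1 lower.

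Sex-linked genes that escape X inactivation were close to 0, with Kdm6a at 0.00 and Eif2s3x at 0.02, although the second Eif2s3x probe was at -0.63, while Kdm5c was at 0.64.

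Dusp14, Akap6 and Pip5k1b, named after their values were seen, were also higher in LysM-St18flox osteoclasts and lower in LysM-St18flox macrophages. Akap6, a scaffold for protein kinase A, differed by 1.20 in osteoclasts and by -2.66 in macrophages. Pip5k1b, a phosphoinositide kinase, differed by 1.95 in osteoclasts and by -1.06 in macrophages. Dusp14, a phosphatase, differed by 1.44 in osteoclasts and by -1.69 in macrophages. The difference between the cell types was not tested.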
